A study of Caenorhabditis elegans with 6 samples.

Results

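The large subunit of the cytosolic ribosome of the nematode Caenorhabditis elegans is described here through the small RNAs that match its protein genes. Members were the protein-coding genes of the deposited transcript table whose symbol starts with rpl- and a number, plus rla-0, rla-1 and rla-2, which encode the acidic stalk proteins, and ubq-2, which encodes ubiquitin fused to a large subunit protein. The rule gave 51 of 20222 protein-coding genes and used no measured value, though it was chosen with earlier results of these data known. Of these, 17 lie on chromosome I, 9 on II, 10 on III, 8 on IV, 5 on V and 2 on X.

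Whole adult males of 2 genotypes were sampled for small RNA sequencing, with 3 libraries each: a prg-1 null mutant and wild type. Both genotypes were cultured at 25 °C, isolated as males at the mid-L4 larval stage in lots of 20 to 30, and collected 24 h later. The part of prg-1 that the allele removes and the strain names are not given in the labels. Purified small RNA of both genotypes was treated with an acid pyrophosphatase, so that RNAs with a 5′ triphosphate could be ligated and cloned.

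PRG-1 is the Piwi-class Argonaute that binds the piRNAs of the worm germline. When an Argonaute finds a transcript, RNA-dependent RNA polymerases can copy that transcript into antisense siRNAs that start with G, called 22G-RNAs, which load onto further Argonautes and silence or license the gene. Ribosomal protein transcripts are abundant in nearly every cell. A separate class, the 26G-RNAs, is made in the male germline and in oocytes and embryos by another polymerase complex.

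Each prg-1 null library held 1133888 to 2205341 genome-aligned reads, and each wild type library 973971 to 1799846. Those counted as 22G-RNA, antisense to protein-coding genes, 21 to 23 nt long and starting with G, numbered 176078, 292111 and 378138 in prg-1 null and 114763, 309541 and 70387 in wild type. Wild type replicate 3 had the fewest. On prg-1 itself there were 7, 15 and 9 antisense 22G reads in prg-1 null and 143, 441 and 88 in wild type, which measures siRNA and not prg-1 mRNA. Sense reads of the major sperm protein genes, of which 28 of 31 had a read, summed to 196 to 256 in prg-1 null and 811 to 2229 in wild type, per 1000000 genome-aligned reads. For this and for 26G-RNAs, the sense reads of rbd-1 and the antisense reads of daf-15 were left out of the genome-aligned reads. These 2 features held the most reads in total over the 6 libraries. The sense reads of ift-74, which were kept, outnumbered the antisense reads of daf-15 in some libraries. Summed markers of the other tissues overlapped between genotypes. Muscle stood at 40.0 to 73.3 per 1000000 in prg-1 null and 36.9 to 63.6 in wild type. Oocyte and hermaphrodite genes stood at 33.8 to 58.9 in prg-1 null and 15.9 to 129 in wild type. The intestine, neuron and epidermis lists held only 0 to 14 reads in any library, too few for their overlap to mean much. In whole animals, fewer cells of a type and less RNA per cell cannot be told apart, and the part of the lower sperm signal in the results was not tested.

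The first comparison asked whether large subunit genes carry more or less antisense 22G-RNA without PRG-1. Far more genes gained than lost: 21 rose and 1, rpl-42, fell (edgeR quasi-likelihood test with Benjamini-Hochberg adjustment, threshold 0.05). Another 8 were tested and not called, and 21, with 3 to 68 reads each over the 6 libraries, had too few reads to be tested. Over all 2879 genes tested, 12.4% were called higher and 32.6% lower. A gene could pass the read filter through the genotype where it was high, so the 30 tested genes do not stand for all 51. With no filter, 19 of the 51 rose, where 2.78% of all 12123 genes with a read did, and 1 of the 51 fell, where 9.9% of all genes did. The 19 and the 21 shared 16 genes: rpl-5, rpl-17, rpl-27, rpl-30 and rpl-43 missed the threshold with no filter, and rpl-10, rpl-25.2 and rpl-33 passed it.

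The rises ran from 1.20 to 5.10 on the log2 scale, with a median of 2.60 and adjusted p-values of 2.0e-05 to 0.048 (edgeR). Across all 30 tested genes the median log2 fold change was 2.02, against -0.11 over all 2879 genes tested. The mean level was higher in prg-1 null for 44 of the 51 genes and lower for 7. For 30 genes every prg-1 null library lay above every wild type library, where 9.35% of genes with a read did so. Of those 30, 8 were among the untested genes and 1, rpl-35, was tested and missed the threshold. Only rpl-42 had every prg-1 null library below every wild type library, against 12.6% of genes with a read. Leaving out each library in turn, 14 to 22 large subunit genes rose and 1 fell. The count was 14 both without prg-1 null replicate 3 and without wild type replicate 2. Over all 2770 to 4106 genes tested in these fits, 288 to 401 rose and 785 to 1204 fell. Of the 21, 11 were called higher in all 6 such fits, and all 21 were higher in each such fit that tested them. Another 9 (rla-1, rpl-5, rpl-17, rpl-18, rpl-21, rpl-27, rpl-30, rpl-41.2 and rpl-43) lost the call in at least 1 such fit. Both rpl-21 and rpl-26 were not tested in some.

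**Figure D1:**
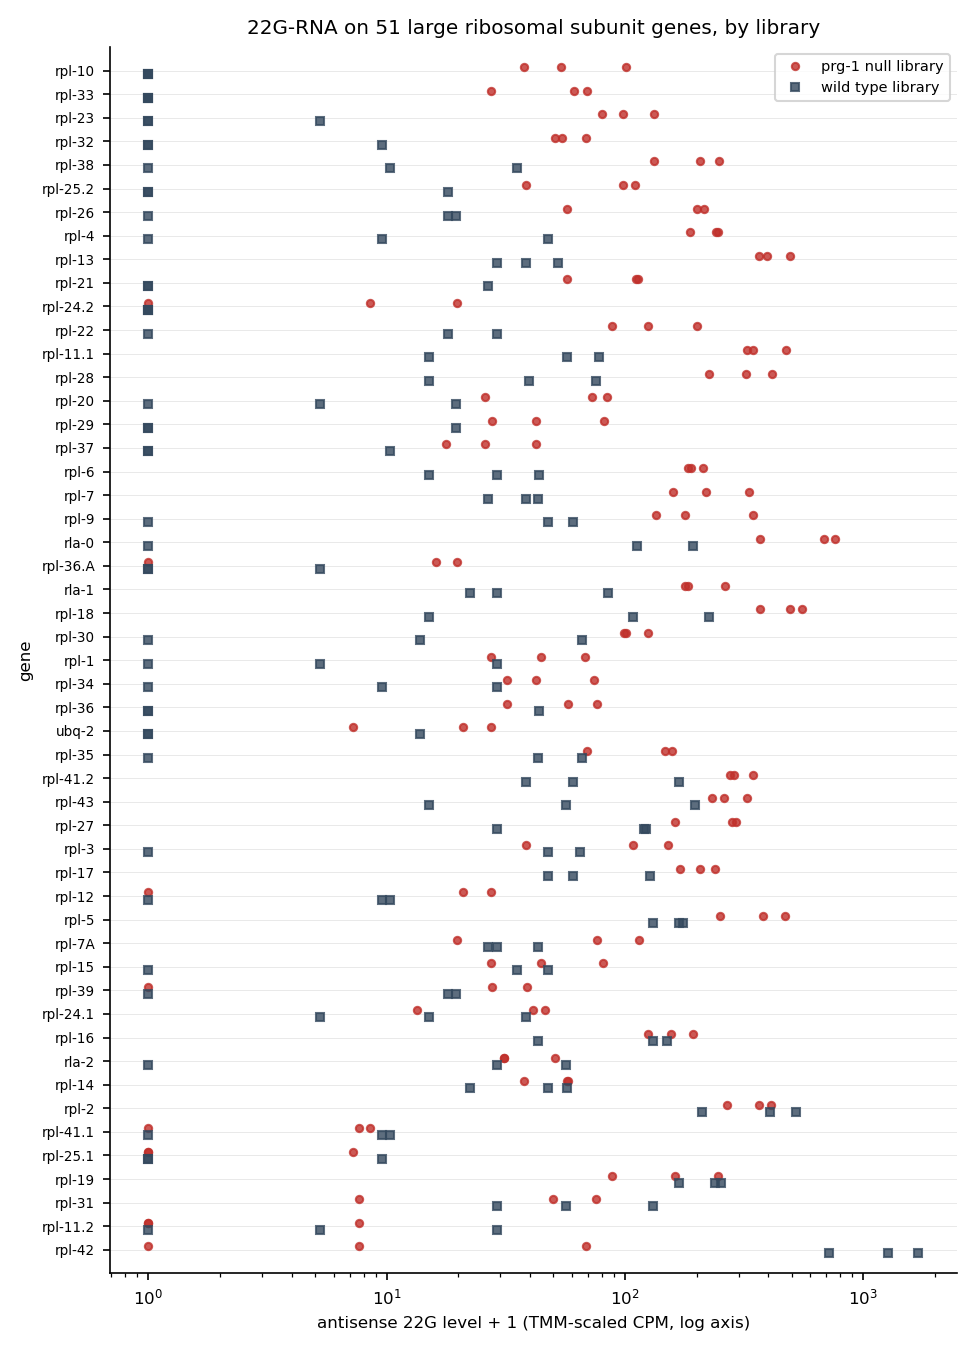
Antisense 22G level in every library for the 51 large subunit genes, as TMM-scaled counts per 1000000 (CPM) plus 1 on a log axis, ordered by the ratio of the means, each plus 1 CPM. Circles are prg-1 null libraries and squares wild type libraries; circles lie to the right of squares for most genes, and rpl-42 at the bottom shows the opposite.

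**Figure D2:**
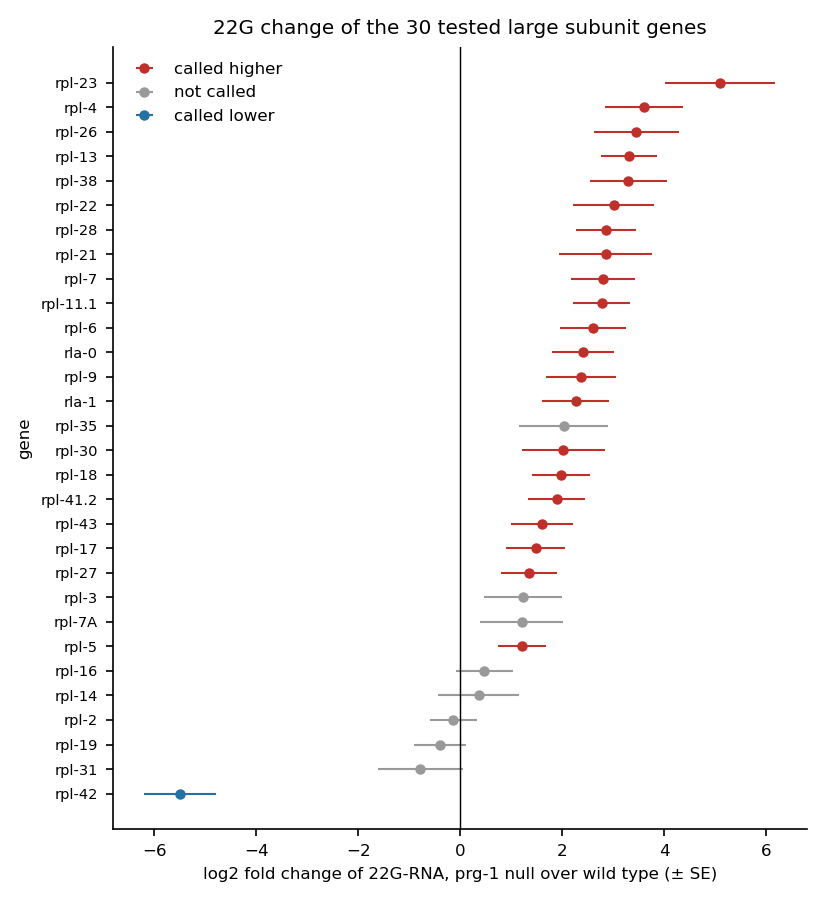
Log2 fold change of antisense 22G-RNA, prg-1 null over wild type, for the 30 tested large subunit genes, with bars of 1 SE. The 21 genes called higher run from 1.20 to 5.10, 8 were not called, and rpl-42, at -5.50, is the gene called lower.

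Added up over all 51 genes, 22G-RNA reached 6487, 7698 and 7596 CPM in prg-1 null, against 4055, 4122 and 2072 CPM in wild type. CPM here means counts per 1000000 22G reads on tested genes, after TMM scaling. The groups did not overlap, at 7260 ± 672 CPM in prg-1 null, against 3416 ± 1165 CPM in wild type (SD, n = 3 each), a ratio of 2.13. A single gene, rpl-42, bore on that ratio. Without it the sums were 7236 ± 649 CPM in prg-1 null, against 2188 ± 742 CPM in wild type, a ratio of 3.31. Scaled instead to genome-aligned reads without those 2 features, the ratio over all 51 genes was 3.12.

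**Figure D3:**
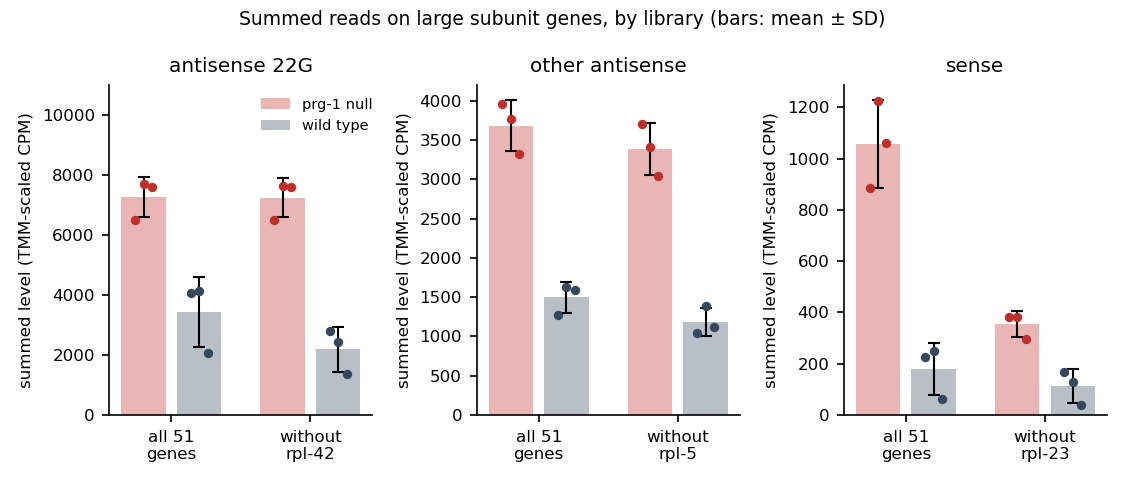
Summed level over the large subunit genes in each library for antisense 22G, other antisense and sense reads, with all 51 genes and without the gene of the highest mean (rpl-42, rpl-5 and rpl-23). Points are libraries and bars are mean ± SD of 3; prg-1 null lies above wild type in all 6 pairs, and the 22G ratio is 3.31 without rpl-42 and 2.13 with it.

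The gene that fell was rpl-42 (WBGene00004455; WBcel235 chromosome II, 11092713 to 11093871, plus strand). The table describes it only as a large subunit ribosomal protein. It held 0, 18 and 2 reads in prg-1 null, against 136, 399 and 51 reads in wild type. All but 1 of the prg-1 null libraries were near 0, and the second, with 67.8 CPM, was still far below the lowest wild type library at 714 CPM. The mean level was 24.8 ± 37.3 CPM in prg-1 null, against 1228 ± 496 CPM in wild type, a log2 fold change of -5.50 ± 0.70 (SE; edgeR adjusted p = 6.4e-07). Without prg-1 null replicate 2 the log2 fold change was -7.95, a size that rests on the 0 and 2 reads left in prg-1 null.

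Per kilobase of transcript, rpl-42 had the highest 22G level of the 51 genes in wild type, 2147 CPM per kb, with rpl-2 next at 433. In prg-1 null the highest levels per kilobase were on rpl-41.2 at 1051 and on rpl-43 at 801 CPM per kb. On rpl-42, 22G reads made up 31.8 ± 31.1% of all antisense reads in prg-1 null and 82.2 ± 4.4% in wild type, over 2, 29 and 6 antisense reads in prg-1 null and 176, 466 and 61 in wild type. The nearby gene rpl-36.A (chromosome II, 11096542 to 11097204, minus strand) had only 3, 4 and 0 reads in prg-1 null and 0, 1 and 0 in wild type, too few to be tested. Its namesake rpl-36, on chromosome III, had 5, 20 and 17 reads in prg-1 null and 0, 10 and 0 in wild type. These overlap, and rpl-36 was not tested either.

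The stalk of the large subunit, which recruits and activates translation factors, is built on P0 (rla-0) with P1 (rla-1) and P2 (rla-2) bound to it. On rla-0, 22G levels were 367, 757 and 681 CPM in prg-1 null, against 112, 192 and 0 CPM in wild type. The genotypes did not overlap, with means of 601 ± 206 CPM in prg-1 null, against 101 ± 96.4 CPM in wild type, and a log2 fold change of 2.40 ± 0.61 (SE; edgeR adjusted p = 0.0022). On rla-1 the levels were 261, 177 and 183 CPM in prg-1 null, against 83.9, 21.3 and 28.0 CPM in wild type, again without overlap. Its log2 fold change was 2.26 ± 0.65 (SE; edgeR adjusted p = 0.0058). The third stalk gene, rla-2, had 8, 8 and 9 reads in prg-1 null and 3, 13 and 0 in wild type, which overlap, and was not tested.

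The sizes for the stalk genes depended on single wild type libraries. The log2 fold change of rla-0 was 3.28 without wild type replicate 2. That of rla-1 was 3.11 without wild type replicate 1, and without wild type replicate 2 it was 1.80 and missed the threshold (edgeR adjusted p = 0.055). ubq-2, whose product is cleaved into ubiquitin and a large subunit protein, had 1, 7 and 6 reads in prg-1 null and 0, 3 and 0 in wild type and was not tested.

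The proteins L5 and L11 join the ribosome together with the 5S ribosomal RNA. The L11 gene on an autosome, rpl-11.1, was recovered in screens for germline proliferation mutants. Its 22G levels were 342, 471 and 324 CPM in prg-1 null, against 55.9, 76.8 and 14.0 CPM in wild type. No libraries overlapped, and the means were 379 ± 80.0 CPM in prg-1 null, against 48.9 ± 32.0 CPM in wild type, a log2 fold change of 2.78 ± 0.56 (SE; edgeR adjusted p = 2.0e-04). On rpl-5 the levels were 249, 467 and 377 CPM in prg-1 null, against 131, 175 and 168 CPM in wild type. The groups were apart, but the change was small, with a log2 fold change of 1.20 ± 0.48 (SE; edgeR adjusted p = 0.043). It missed the threshold when any library except prg-1 null replicate 1 was left out (edgeR adjusted p of 0.059 to 0.19). The exons of rpl-5 overlap those of bcs-1 on the same strand, and the part of that overlap was not tested.

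Several genes belong to pairs or have a close namesake, and the X chromosome, largely silent in the germline, holds a copy in 2 of these pairs. The X-linked rpl-11.2 had 0, 0 and 2 22G reads in prg-1 null and 0, 1 and 2 in wild type. The X-linked rpl-25.1 had 1, 0 and 0 reads in prg-1 null and 0, 2 and 0 in wild type. Its partner on chromosome I, rpl-25.2, had 6, 29 and 29 reads in prg-1 null and 0, 4 and 0 in wild type. Both encode L23a, a protein at the exit of the peptide tunnel. For rpl-25.2 every prg-1 null library lay above every wild type library, with a ratio of pooled reads of 9.10 (95% interval 3.39 to 34.4, counting error only), though it had too few reads to be tested.

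On chromosome I, rpl-41.1 and rpl-41.2 lie 700 bases apart. The gene rpl-41.2 had 286, 275 and 344 CPM in prg-1 null, against 37.3, 59.7 and 168 CPM in wild type, without overlap. Its log2 fold change was 1.89 ± 0.56 (SE; edgeR adjusted p = 0.0074), and 2.58 without wild type replicate 3. The call was lost without wild type replicate 1 and without wild type replicate 2, with edgeR adjusted p-values of 0.071 and 0.075. Its neighbour rpl-41.1 had 0, 2 and 2 reads in prg-1 null and 1, 2 and 0 in wild type, which overlap.

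Neither gene of the L24 pair was tested. The ribosomal rpl-24.1 had 2, 12 and 12 reads in prg-1 null and 4, 1 and 1 in wild type, with overlap. The gene rpl-24.2, described in the table as a probable ribosome biogenesis protein, had 3, 2 and 0 reads in prg-1 null and none in wild type. How reads that fit both genes of a pair were counted is not given in the sources used here, so values for near-identical pairs are uncertain to that extent.

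**Figure D4:**
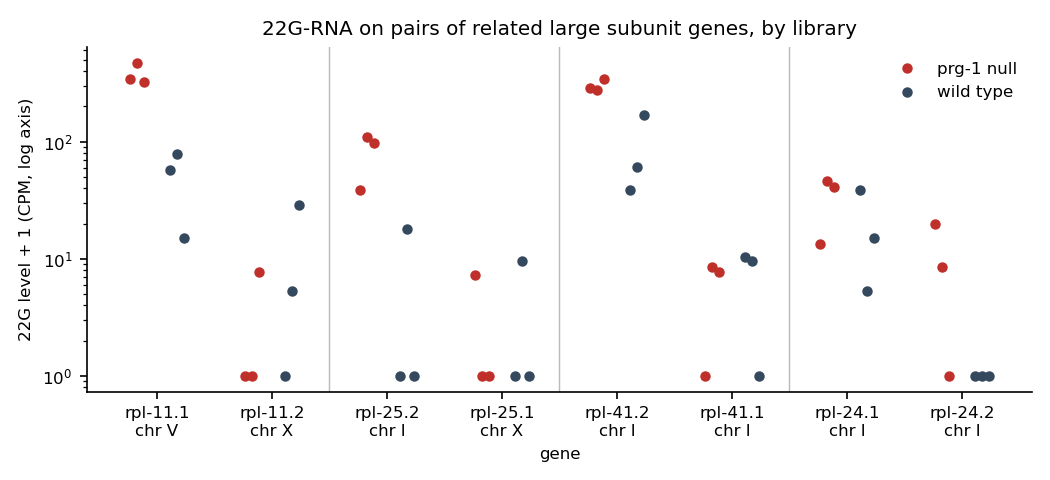
Antisense 22G level plus 1 (CPM, log axis) in every library for 4 pairs of related large subunit genes, with prg-1 null points left of wild type points for each gene. In 3 pairs the gene drawn first (rpl-11.1, rpl-25.2 and rpl-41.2) has all prg-1 null libraries above all wild type libraries, while its partner has at most 2 reads in any library. The namesakes rpl-36 and rpl-36.A, and rpl-7 and rpl-7A, are not drawn.

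The largest relative rise was on rpl-23, whose protein L23 sits on the face that meets the small subunit. It had 21, 21 and 29 reads in prg-1 null and 0, 1 and 0 in wild type, or 131, 79.1 and 96.7 CPM against 0, 4.27 and 0 CPM. The log2 fold change was 5.10 ± 1.08 (SE; edgeR adjusted p = 3.5e-04), and the ratio of pooled reads was 40.4 with a 95% interval of 7.02 to 1618 for counting error. Its size rests on 1 wild type read, and the log2 fold change was 7.21 without wild type replicate 2, which held that read. With no wild type read left, that fitted value is no bound. The exons of rpl-23 overlap those of swp-1 on the same strand, and the part of that overlap was not tested.

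L4, encoded by rpl-4, lines the peptide tunnel. It had 187, 241 and 244 CPM in prg-1 null, against 46.6, 8.53 and 0 CPM in wild type, a log2 fold change of 3.60 ± 0.76 (SE; edgeR adjusted p = 3.5e-04). L26, encoded by rpl-26, binds near the tunnel exit. It had 9, 53 and 64 reads in prg-1 null and 2, 4 and 0 in wild type, a log2 fold change of 3.45 ± 0.83 (SE; edgeR adjusted p = 0.0012). Neither gene overlapped between genotypes. Without wild type replicate 1 the log2 fold change of rpl-4 was 5.04, a size that rests on the 2 and 0 reads left in wild type. Without prg-1 null replicate 2 or 3, rpl-26 no longer passed the read filter.

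On rpl-13 the levels were 392, 489 and 364 CPM in prg-1 null, against 37.3, 51.2 and 28.0 CPM in wild type. The log2 fold change was 3.30 ± 0.54 (SE), with the smallest edgeR adjusted p of the genes called higher, 2.0e-05. On rpl-38, whose mouse counterpart is needed for translating a subset of Hox mRNAs, the levels were 205, 132 and 247 CPM in prg-1 null, against 9.32, 34.1 and 0 CPM in wild type. Its log2 fold change was 3.30 ± 0.75 (SE; edgeR adjusted p = 7.6e-04). Without wild type replicate 2 it was 4.99, a size that rests on the 1 and 0 reads left in wild type. Neither gene overlapped between genotypes.

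Next in size of rise were rpl-22, rpl-28, rpl-21 and rpl-7. On rpl-22 there were 14, 53 and 37 reads in prg-1 null and 3, 4 and 0 in wild type, a log2 fold change of 3.01 ± 0.80 (SE; edgeR adjusted p = 0.0030). On rpl-28 there were 36, 110 and 96 reads in prg-1 null and 8, 9 and 1 in wild type, at 2.86 ± 0.59 (SE; edgeR adjusted p = 2.6e-04). All of these had their lowest prg-1 null level above their highest wild type level. On rpl-21 there were 9, 30 and 33 reads in prg-1 null and 0, 6 and 0 in wild type, at 2.85 ± 0.91 (SE; edgeR adjusted p = 0.012). On rpl-7 there were 53, 42 and 65 reads in prg-1 null and 4, 6 and 3 in wild type, at 2.80 ± 0.63 (SE; edgeR adjusted p = 6.7e-04). The rpl-21 value turned on single wild type libraries, at 7.10 without replicate 2 and at 2.41, no longer called (edgeR adjusted p = 0.066), without replicate 1. The value without replicate 2, which held every wild type read, is no bound. Without prg-1 null replicate 2 or 3, rpl-21 no longer passed the read filter. The exons of rpl-7 overlap those of F53G12.9 on the same strand, and the part of that overlap was not tested.

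rpl-18 had 492, 369 and 554 CPM in prg-1 null, against 224, 107 and 14.0 CPM in wild type. The groups did not overlap, and the log2 fold change was 1.98 ± 0.57 (SE; edgeR adjusted p = 0.0058). Without wild type replicate 1 it was 2.73, and without wild type replicate 2 it was 1.90 and missed the threshold (edgeR adjusted p = 0.078).

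Some of the genes with many 22G reads in wild type males were not called. On rpl-2, whose protein, of the L2 family, lies next to the peptidyl transferase centre, the levels were 268, 365 and 410 CPM in prg-1 null, against 522, 405 and 210 CPM in wild type. They overlapped, and the log2 fold change was -0.14 ± 0.46 (SE; edgeR adjusted p = 0.84). Its sign was not stable: it was 0.43 scaled to genome-aligned reads, 0.72 with all antisense reads, 0.09 on 22-nt reads alone and 0.17 without wild type replicate 1. On rpl-19 they were 87.2, 162 and 244 CPM in prg-1 null, against 168, 252 and 238 CPM in wild type, again overlapping, at -0.40 ± 0.50 (SE; edgeR adjusted p = 0.57), and at 0.11 scaled to genome-aligned reads. rpl-7A, with fewer reads, was not called either. It had 3, 20 and 34 reads in prg-1 null and 3, 6 and 3 in wild type, with overlap and a log2 fold change of 1.21 ± 0.81 (SE; edgeR adjusted p = 0.25).

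For 3 of the 51 genes, rpl-10, rpl-33 and rpl-24.2, no wild type library held a 22G read, where 14.8% of genes with a read had none. L10, encoded by rpl-10, is added late, in the cytoplasm, before the subunit can translate. It had 16, 14 and 11 reads in prg-1 null. Their mean level, 63.0 CPM, was 8.67-fold above the 3 reads that a count of 0 over the wild type libraries allows. Set against the same bound, the mean of rpl-33, with 11, 7 and 18 reads in prg-1 null, was 7.11-fold higher. The spread of the prg-1 null libraries, 36.7 to 99.6 CPM for rpl-10, is not in these values. The genes rpl-10, rpl-33, rpl-35 and rpl-43 are named after their values were seen.

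The second comparison used the antisense reads that are not 22G-RNA, of other lengths or another first base. Here too more large subunit genes gained than lost: 9 of 23 tested genes rose, 1 fell and 13 were not called, where 9.52% of all 2814 genes tested were called higher and 14.0% lower (edgeR, Benjamini-Hochberg threshold 0.05). The read filter could again pass a gene through the genotype where it was high, so the 23 do not stand for all 51. The 9 called higher among the tested genes were rla-0, rla-1, rpl-2, rpl-4, rpl-9, rpl-11.1, rpl-13, rpl-18 and rpl-38, and all except rpl-2 also rose in 22G-RNA. With no filter 9 of the 51 rose, against 1.71% of 14759 genes, and 1 fell, against 4.53%. The 2 sets of 9 shared 7 genes: with no filter rla-0 and rpl-11.1 missed the threshold (edgeR adjusted p of 0.080 and 0.088), and rpl-17 and rpl-36 passed it. Without TMM scaling rla-0 missed it too (edgeR adjusted p = 0.069). In 25 genes every prg-1 null library lay above every wild type library, where 7.7% of genes with a read did so. Of the 9 calls, 4 (rla-0, rpl-2, rpl-9 and rpl-13) held in the filtered test whichever library was left out. The lowest count, 5, came without prg-1 null replicate 2, where 204 of all 2978 genes tested rose and 383 fell. The call was lost for rla-1 without prg-1 null replicate 2 (edgeR adjusted p = 0.063) and for rpl-18 without prg-1 null replicate 1 (edgeR adjusted p = 0.058). It was lost for rpl-11.1 in 3 of the fits (edgeR adjusted p of 0.056 to 0.060), for rpl-38 in 3 (0.058 to 0.11) and for rpl-4 in 4 (0.074 to 0.12).

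rpl-2 rose in this class and was not called in 22G-RNA. Per 1000000 reads of the class it had 193, 236 and 213 CPM in prg-1 null, against 32.9, 53.4 and 0 CPM in wild type. Its log2 fold change was 2.60 ± 0.59 (SE; edgeR adjusted p = 0.0072), and 3.22 without wild type replicate 2. The exons of rpl-2 overlap those of dhcr-7 on the opposite strand over 32 bases, and the part of that overlap was not tested. rpl-42 fell in this class as well, with 2, 11 and 4 reads in prg-1 null and 40, 67 and 10 in wild type, at -3.02 ± 0.56 (SE; edgeR adjusted p = 0.0019), and -3.69 without prg-1 null replicate 2. Summed over the 51 genes, the class stood at 3680 ± 326 CPM in prg-1 null, against 1496 ± 199 CPM in wild type (SD, n = 3 each), a ratio of 2.46. That sum was 2.86-fold higher in prg-1 null when rpl-5 was left out.

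The lengths of the antisense reads also differed between genotypes. Reads of 26 nt starting with G, the form of 26G-RNAs, were 2.87%, 4.26% and 3.24% of antisense reads on the 51 genes in prg-1 null and 12.0%, 10.6% and 16.5% in wild type. The groups did not overlap on these genes, while on all other protein-coding genes they did, at 4.93 ± 0.97% in prg-1 null and 6.96 ± 3.75% in wild type. By library, those other genes had 4.92%, 5.91% and 3.97% in prg-1 null and 10.7%, 7.07% and 3.17% in wild type. There wild type replicates 1 and 2 lay above every prg-1 null library, and replicate 3 lay below. On the 51 genes, the number of such reads per 1000000 genome-aligned reads did not separate the genotypes. It was 70.3 ± 21.8 in prg-1 null and 83.8 ± 14.6 in wild type (SD, n = 3 each). Antisense reads of all lengths on these genes numbered 1707, 3125 and 3214 in prg-1 null and 708, 1471 and 266 in wild type. Of the 51 genes, 34 had a 26G read. The shares on all other protein-coding genes, here and below, include the antisense reads of daf-15. Those were 65682 of 221029 antisense reads in wild type replicate 3 and 52156 of 589830 in wild type replicate 2.

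Short reads of 16 to 20 nt starting with G moved the other way, at 9.35 ± 0.51% of antisense reads in prg-1 null and 3.75 ± 1.63% in wild type, without overlap. On all other protein-coding genes these reads were also apart, at 4.77 ± 0.62% in prg-1 null and 2.81 ± 0.72% in wild type. The share of 22G reads overlapped, at 65.9 ± 4.9% in prg-1 null and 61.1 ± 5.2% in wild type, and was apart once rpl-42 was left out, at 65.9 ± 4.9% in prg-1 null and 53.5 ± 5.4% in wild type.

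**Figure D5:**
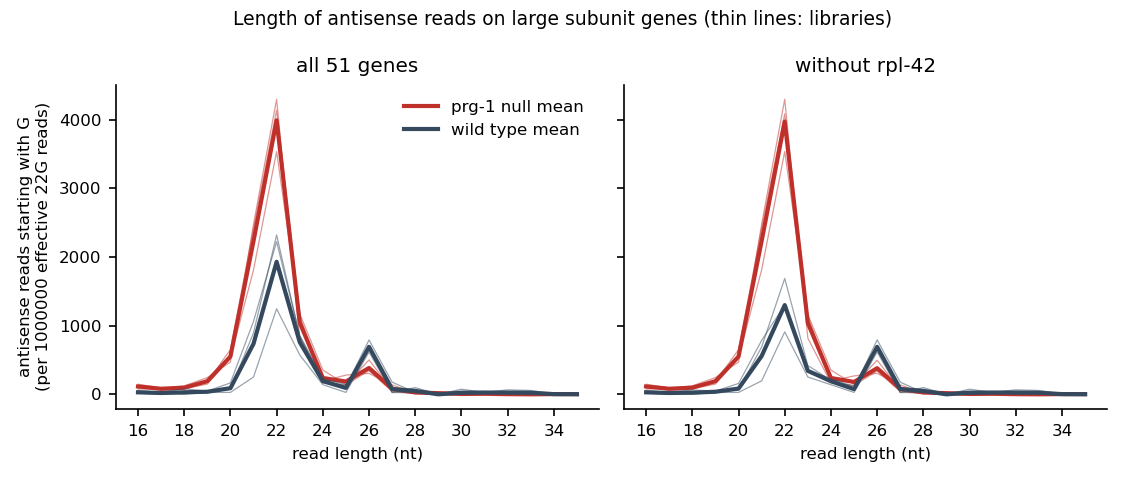
Antisense reads starting with G on the large subunit genes by read length, per 1000000 effective 22G reads, for all 51 genes (left) and without rpl-42 (right). Thin lines are libraries and thick lines genotype means; the peak at 22 nt is higher in prg-1 null, and the small peak at 26 nt is higher in wild type on this scale.

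Of 571 reads of the 26G form on the 51 genes, 198 were on rpl-5. It had 15, 59 and 22 such reads in prg-1 null and 38, 41 and 23 in wild type. Per genome-aligned read the groups overlapped, but the share of these reads among rpl-5 antisense reads did not, at 18.8 ± 7.5% in prg-1 null and 49.4 ± 13.2% in wild type. Next was rpl-41.1, with 8, 11 and 12 reads in prg-1 null and 4, 35 and 5 in wild type. The X-linked rpl-25.1, almost without 22G reads, had 3, 9 and 15 26G reads in prg-1 null and 9, 7 and 1 in wild type. rpl-42 had 0, 1 and 2 in prg-1 null and none in wild type. The exons of rpl-5 overlap those of bcs-1 on the same strand, and the part of that overlap in these reads was not tested.

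The third comparison used sense reads, which run along the mRNA strand and include its breakdown products. Few large subunit genes had enough of them: 49 had at least 1 read, 2 could be tested, and both rose, where 11.6% of all 713 genes tested were called higher and 13.9% lower (edgeR, Benjamini-Hochberg threshold 0.05). The read filter could again pass a gene through the genotype where it was high, so these 2 do not stand for all 51. In 10 genes every prg-1 null library lay above every wild type library, where 3.89% of genes with a read did so, and in none did every prg-1 null library lie below, where 5.33% did. With no filter 1 of the 51, rpl-23, rose, against 0.415% of 13737 genes, and none fell, against 0.706%. Of the 49 genes with a sense read, 18 had none in wild type, where 18.7% of all genes with a read had none.

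rpl-23 had 130, 330 and 361 sense reads in prg-1 null and 18, 51 and 6 in wild type. That was most of the sense reads on these genes in prg-1 null, of 230, 479 and 500 in all, but not in wild type, of 72, 106 and 16. Every prg-1 null library was above every wild type library, at 703 ± 181 CPM, per 1000000 sense reads of tested genes, in prg-1 null, against 66.8 ± 49.3 CPM in wild type (SD, n = 3 each). The log2 fold change was 3.37 ± 0.74 (SE; edgeR adjusted p = 0.0027), and 4.14 without wild type replicate 2. Reads of 19 nt starting with G were 61.3 ± 6.0% of them in prg-1 null and 34.0 ± 1.1% in wild type, without overlap. The gene overlaps swp-1 on the same strand, so reads from both transcripts cannot be told apart where they share sequence.

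The other tested gene was rpl-7A, with 20, 17 and 17 sense reads in prg-1 null and 1, 1 and 0 in wild type. It had 52.1 ± 21.7 CPM in prg-1 null, against 1.83 ± 1.63 CPM in wild type, a log2 fold change of 4.48 ± 1.00 (SE; edgeR adjusted p = 0.0031), and the call was lost with no filter (edgeR adjusted p = 0.053). Reads of 22 nt starting with A made up 11, 11 and 10 of them in prg-1 null and none in wild type. In the annotation, 67 of its exon bases overlap Y24D9A.11 on the opposite strand, and the part of that overlap in these reads was not tested. Its introns hold 2 snoRNA genes, but reads were counted on transcript sequences, which leave introns out. Next in mean sense level in prg-1 null was rpl-18, with 7, 5 and 8 reads there and none in wild type, too few to be tested. Summed over the 51 genes, sense reads stood at 1056 ± 171 CPM in prg-1 null, against 179.5 ± 102 CPM in wild type, a ratio of 5.88, and of 3.13 without rpl-23.

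Genes with related functions were set beside the large subunit by their 22G calls alone, where 12.4% of all tested genes were called higher and 32.6% lower. As for the large subunit, a gene could pass the read filter through the genotype where it was high, so the tested genes do not stand for the whole list. Of 33 small subunit genes, 24 were tested, 15 rose and none fell, with a median log2 fold change of 1.94. Their largest rise was on rps-25, at 142 ± 43.0 CPM in prg-1 null, against 7.37 ± 6.62 CPM in wild type. The 39 genes of the mitochondrial large subunit had 3 tested members, all 3 lower, including mrpl-28 at 4.88 ± 5.80 CPM in prg-1 null, against 237 ± 92.1 CPM in wild type, from 0, 3 and 1 reads in prg-1 null and 14, 67 and 21 in wild type. Of 41 translation factor genes 20 were tested, 4 rose and 1 fell, with a median of 0.73, and the one that fell was eif-3.L, at a log2 fold change of -2.66. Of 14 large subunit assembly and nucleolar genes 5 were tested, none rose and 1, dao-5, fell, at -3.78. Whether these lists differ from the large subunit was not tested.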

How the data were processed

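The authors deposited counts, called estimated counts here because their rule for reads with several matches is not given in the sources used here. Per the file headers, reads were counted per transcript and per genome bin on build ce11, sense and antisense apart, with a deposited breakdown of each count by read length and 5′ base. The submitters' processing notes name FastQC 0.12.0, cutadapt 3.7 and WBcel235; no aligner is named. The deposited values were whole, so rounding changed nothing.

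Each of the 51 genes was read on the isoform of highest mean, which held 99.8% of their 22G reads. The test was edgeR 4.0.16 in R 4.3.3 (quasi-likelihood test, filterByExpr, TMM, genotype only, Benjamini-Hochberg over all tested genes). The labels do not say whether replicates came from separate cultures, so p-values measure the spread between these libraries. Replicate numbers did not pair libraries (22G correlations of -0.041, 0.048 and 0.012). Bounds for genes with no read use 3 counts over the 3 libraries of a genotype, which is 7.26 CPM in wild type. Bounds cover counting error in wild type only and take the prg-1 null mean as it stands. The 95% exact intervals cover counting error only. On simulated 22G counts over 2879 genes, 130 of 200 genes changed up or down at random were recovered, all in the right direction. The data themselves had 357 genes higher and 938 lower, and the simulation does not cover that imbalance. Its false calls are not given here.

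The members, the lists and the rule for named genes were chosen with earlier results of these data known. Named were the gene called lower, the 10 largest rises with at least 10 CPM, the 5 highest levels in each genotype, the stalk and ubiquitin fusion genes, pairs of related symbols, the 3 highest sense levels, and up to 2 called members of each other list. Alternatives were DESeq2 1.42.0, other scaling and filters, a replicate block, summed isoforms, 22-nt reads alone, all antisense reads, a 2-fold minimum and leaving out each library. Scaling to genome-aligned reads left out the sense reads of rbd-1 and the antisense reads of daf-15. No sequence is printed. Figures used Python 3.11.15 with matplotlib 3.10.9.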

Additional observations from a re-analysis of the deposited data

How the results depend on the processing

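No called result changed its direction under the alternatives run. Of the named genes not called in 22G-RNA, rpl-2 (-0.14 on the log2 scale) was positive in 5 alternatives, up to 0.72 with all antisense reads, and rpl-19 (-0.40) was at 0.11 scaled to genome-aligned reads. Scaled to genome-aligned reads, which put the median of all tested genes at 0.44 in place of -0.11 on the log2 scale, 578 genes were higher and 850 lower in 22G-RNA, and 22 large subunit genes rose and 1 fell. DESeq2 gave 18 higher and 1 lower of 30 tested large subunit genes, against 339 higher and 939 lower of all 2879. No filter gave 19 higher and 1 lower of 51, against 337 and 1200 of 12123. At least 10 reads in 3 libraries gave 16 and 1 of 28, against 309 and 671 of 2579. Counting 22-nt reads alone gave 15 and 1 of 23, against 306 and 672 of 1675. The replicate block gave 18 large subunit genes higher and 1 lower, and 306 higher and 890 lower over all genes. There rpl-5 lost its call (edgeR adjusted p = 0.13). With the block, the other antisense fit had 8 large subunit genes higher and 1 lower, against 210 higher and 341 lower of all 2814. In that fit rpl-4 lost its call (edgeR adjusted p = 0.077). Replicate numbers did not pair the libraries. The log2 ratio of summed 22G levels was 1.09, 1.64 scaled to genome-aligned reads, and 1.73 without rpl-42. It was 1.52 for other antisense reads without rpl-5 and 1.65 for sense reads without rpl-23. Library-size scaling gave 51 genes higher in sense reads, and no filter gave 669 genes lower in other antisense reads and 1 large subunit gene higher in sense reads. Without the filter rpl-7A missed the threshold in sense reads (edgeR adjusted p = 0.053). With all antisense reads rpl-7A passed it, at 1.91 on the log2 scale, and rpl-5 was at 0.46 and not called.

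Leaving out each library gave 288 to 401 genes higher and 785 to 1204 lower in 22G-RNA, with 14 to 22 large subunit genes higher. It gave 194 to 272 genes higher and 383 to 493 lower in other antisense reads, with 5 to 10 large subunit genes higher. In sense reads it gave 70 to 102 genes higher and 62 to 132 lower, the lowest count of lower genes without wild type replicate 1. The log2 ratio of the sums ran from 0.83 to 1.25 for 22G-RNA, 1.19 to 1.37 for other antisense reads and 2.15 to 2.87 for sense reads. In other antisense reads, rla-1 was at 3.06 without wild type replicate 1 and 4.43 without wild type replicate 2, rpl-13 at 4.17 and rpl-38 at 3.15 without wild type replicate 2, and rpl-4 at 2.02 without wild type replicate 1. Without wild type replicate 2, the other wild type libraries held 0 and 1 such reads on rla-1, 3 and 0 on rpl-13 and 4 and 0 on rpl-38. The cause of the shifts in fold change was not tested. Of the 51 genes, 5, 2 and 3 had no 22G read in prg-1 null replicates 1, 2 and 3, and 12, 6 and 29 had none in wild type replicates 1, 2 and 3. The part of depth in these counts was not tested.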
